A study of Rattus norvegicus with 18 samples.

Results

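The comparison asked how the effect of aristolochic acid (AA) on gene expression in NRK-52E cells differed between 72 h and 24 h of exposure. For each gene it was the AA minus DMSO difference at 72 h minus the AA minus DMSO difference at 24 h, on the log2 scale. It used 12 of the series' 18 Affymetrix rat arrays, those titled at 72 h or 24 h, 3 in each of 4 groups: AA at 72 h with its DMSO control, and AA at 24 h with its DMSO control. NRK-52E is an established rat line of Osborne-Mendel origin with features of kidney proximal tubule epithelium. All groups had been grown to confluence in medium with fetal calf serum. AA groups received 1.65 µM AA in 0.1% DMSO and control groups received 0.1% DMSO alone. Per the labels, the dose was the concentration that inhibits by 10 percent at 72 h. Replicates are labelled biological and the protocol speaks of 3 studies per time, without stating which cultures were grown or treated together. The p-values therefore reflect only how far these arrays spread, which may be partly technical. Each gene with a single symbol in the platform annotation was read from the probe set with the highest mean over all 18 arrays, and 8949 of 14217 such genes reached log2 4 on at least 3 of the 12 arrays and were tested. The 2 treatment effects share no arrays.

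Aristolochic acid, a kidney toxin and carcinogen made by birthworts (Aristolochia), is reduced inside cells to a form that binds purine bases in DNA. The bulky adducts block polymerases, and the damage response that follows stabilises the transcription factor p53, which induces the cyclin-dependent kinase inhibitor p21 (Cdkn1a) and its own inhibitor Mdm2. Genes of mitosis are transcribed in G2 phase through CCAAT boxes, bound by NF-Y, and the cell cycle homology region (CHR), bound by MuvB complexes. With B-MYB and FOXM1 these complexes activate the genes, and the DREAM form of the complex, which p21 promotes, represses them.

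Replicate arrays of a group correlated at r = 0.9962 to 0.9989 over all probe sets of the array. Over the genes tested, the median SD within a group was 0.10 on the log2 scale. Values near log2 2 are the floor of the deposited values, and a log2 difference against a group below log2 4 depends on the background model used to make them. Of 12 proximal tubule markers, 10 lay below log2 4 on all 12 arrays, among them the transporters Slc34a1, Slc5a2 and Slc22a6, so the labelled cell type is not shown by its defining transporters here. Keratin 8 (Krt8) and the tight junction protein Tjp1 were high in all groups, with group means of log2 12.71 to 13.91 for Krt8 and 13.54 to 13.84 for Tjp1. Of the 8 epithelial markers, 5 stayed below log2 4 on all arrays: Cdh1, Epcam, Krt18, Krt19 and Cldn1. The fibroblast-type collagen Col3a1 was also high, at group means of 14.16 to 14.64, and Col1a1 and Col1a2 had 7.48 to 10.16 and 9.77 to 10.85. The fibroblast markers Pdgfra, Dcn, Lum and Thy1 stayed below log2 4 on all arrays. Below log2 4 on all arrays were 3 of 4 endothelial markers, 3 of 4 immune markers and all 5 of the distal tubule and collecting duct, among them Pecam1, Ptprc and Umod. The exceptions were the endothelial Tek, at group means of 4.19 to 6.21, and the immune Cd68, at 3.33 to 5.23. The beta-actin control probe sets, which read RNA integrity, differed between 3′ and 5′ by 1.85 to 2.16 in AA at 72 h against 1.29 to 1.45 in DMSO at 72 h, and by 1.18 to 1.27 in both AA and DMSO at 24 h. For beta-actin the exact two-sided permutation p at 72 h was 0.1, the smallest that 3 against 3 arrays can give. The AA minus DMSO gap at 72 h was 0.65 for beta-actin and smaller for the other control pairs, 0.13 for GAPDH and 0.26 for hexokinase. GAPDH read -0.12 to -0.04 in AA at 72 h against -0.28 to -0.13 in DMSO at 72 h, without overlap. Hexokinase read 1.1 to 1.67 against 0.92 to 1.29, and its groups overlapped. At 24 h the gaps were -0.02 for beta-actin, -0.01 for GAPDH and 0.03 for hexokinase. The part of RNA integrity in the results below was not tested.

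At 72 h, 2633 genes were higher in AA (29.4% of those tested) and 1903 were lower (21.3%), together 50.7%. At 24 h, 150 were higher (1.68%) and 26 lower (0.291%), together 1.97%. The effect itself differed between the times for 3243 genes (36.2%), with 1876 higher at 72 h than at 24 h (21.0%) and 1367 lower (15.3%), by limma with Benjamini-Hochberg adjustment at 0.05 over all genes tested. For 849 genes the change of effect was at least 2-fold. Of the changed genes, 2920 were late-onset: called at 72 h and not at 24 h. This group held 1739 genes higher in AA at 72 h and 1181 lower. A further 44 were reversed, called at both times with opposite signs, and 31 were amplified, called at both times in the same direction with a larger effect at 72 h. Mtfr2, a mitochondrial fission regulator, was the 1 attenuated gene, with an effect of 0.32 at 72 h and 0.69 at 24 h, and it lost its call under 13 of the 21 alternative settings. A call at 24 h alone was made for 56 genes whose effect changed, here termed early-only, and 191 were called by the change of effect and at neither time (104 without AA 24 h replicate 1). Another 33 genes were sustained: called at both times in the same direction with no call on the change.

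**Figure D1:**
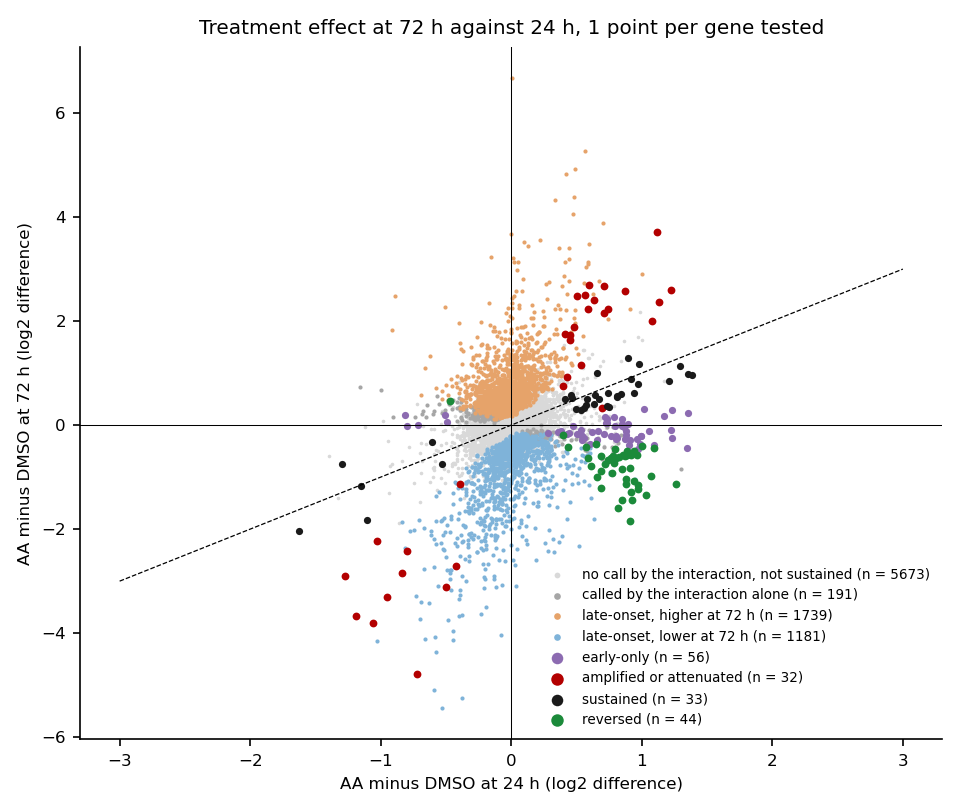
Each point is 1 of the 8949 genes tested, with the AA minus DMSO log2 difference at 24 h on the horizontal axis and at 72 h on the vertical axis, coloured by class, and the dashed line marks equal effects. Late-onset genes spread along the vertical axis, the 43 genes lower at 72 h and higher at 24 h form a group at the lower right, and amplified genes lie at the upper right and lower left.

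The counts of the small classes follow the 24 h calls, which leaned on single arrays. Without 1 array, the genes higher at 24 h numbered 76 (AA 24 h replicate 1 left out), 75 (AA 24 h replicate 2), 72 (DMSO 24 h replicate 1) and 97 (DMSO 24 h replicate 3), and 106 to 172 without any other array. The genes lower at 24 h numbered between 8, without DMSO 24 h replicate 1, and 54, without AA 72 h replicate 1, with 41 without AA 72 h replicate 2, 15 without AA 24 h replicate 1, 11 without AA 24 h replicate 2 and 14 without AA 24 h replicate 3. The calls on the change of effect stayed between 1560 and 2126 genes higher and between 1134 and 1429 lower.

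Most of the reversed genes were on the list of mitotic genes. In 43 of the 44 the AA arrays were lower at 72 h and higher at 24 h, with a median effect of -0.74 at 72 h and 0.85 at 24 h and a median change of -1.52. Of these 43, 29 were on a list of 71 G2/M and mitosis genes, of which 59 were among the 8949 genes tested. A list of G1/S and replication genes held 1 (Mcm7, a subunit of the replicative helicase). A list of homologous recombination and Fanconi genes held 1 (Fancd2). The 12 on none of the 3 lists included Knstrn, Spdl1, Tacc3, Kifc1 and Cenpw, whose products work at the spindle or the centromere. At both times the 3 AA arrays lay apart from the 3 DMSO arrays in 40 of the 43, where 59.8% of all genes tested lay apart at 72 h and 19.5% at 24 h. The class was defined by these calls, so its values are a description.

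Cdc20, the mitotic activator of the anaphase-promoting complex, had the largest change. Cdc20 measured 7.52, 7.39 and 7.21 in AA at 72 h against 9.29, 9.41 and 8.94 in DMSO at 72 h, and 8.77, 8.77 and 8.42 in AA at 24 h against 7.65, 7.95 and 7.62 in DMSO at 24 h. The groups did not overlap at either time, and DMSO at 72 h was the highest of the 4 groups. Its effect was -1.84 at 72 h and 0.91 at 24 h, a change of -2.75 ± 0.20 (SE, adjusted p = 3.24e-07). Averaged over all 5 of its probe sets in place of the brightest, the change was -1.21, with the call kept.

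Cyclin B1 (Ccnb1), the mitotic partner of Cdk1, measured 7.84, 8.24 and 8.15 in AA at 72 h against 9.78, 9.98 and 9.24 in DMSO at 72 h. At 24 h it measured 9.56, 9.46 and 9.16 in AA against 8.28, 8.74 and 8.70 in DMSO, so AA was the lower group at the later time and the higher one at the earlier. The change was -2.41 ± 0.25 (adjusted p = 6.06e-06). Cdk1 itself had a smaller change of -1.39 ± 0.15, with effects of -0.78 at 72 h and 0.61 at 24 h.

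The kinetochore protein Cenpf measured 8.65, 8.23 and 8.26 in AA at 72 h against 9.83, 10.02 and 9.63 in DMSO at 72 h, and 8.87, 9.21 and 8.78 in AA at 24 h against 7.85, 8.15 and 8.08 in DMSO at 24 h. The mitotic kinase Plk1 measured 5.68, 5.74 and 5.78 in AA at 72 h against 7.37, 7.44 and 6.72 in DMSO at 72 h, and 6.90, 7.17 and 6.92 in AA at 24 h against 5.90, 6.46 and 6.07 in DMSO at 24 h. For both genes DMSO at 72 h lay above DMSO at 24 h on every array, and the changes were -2.37 ± 0.20 and -2.29 ± 0.27. Sapcd2, Knstrn, Ube2c, the ubiquitin-conjugating enzyme that works with Cdc20, and Kif20a, a kinesin of cytokinesis, completed the 8 largest, with changes of -2.20 to -2.39. Top2a and Mki67, widely read as proliferation markers, had effects of -0.50 and -0.59 at 72 h against 0.94 and 0.69 at 24 h.

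**Figure D2:**
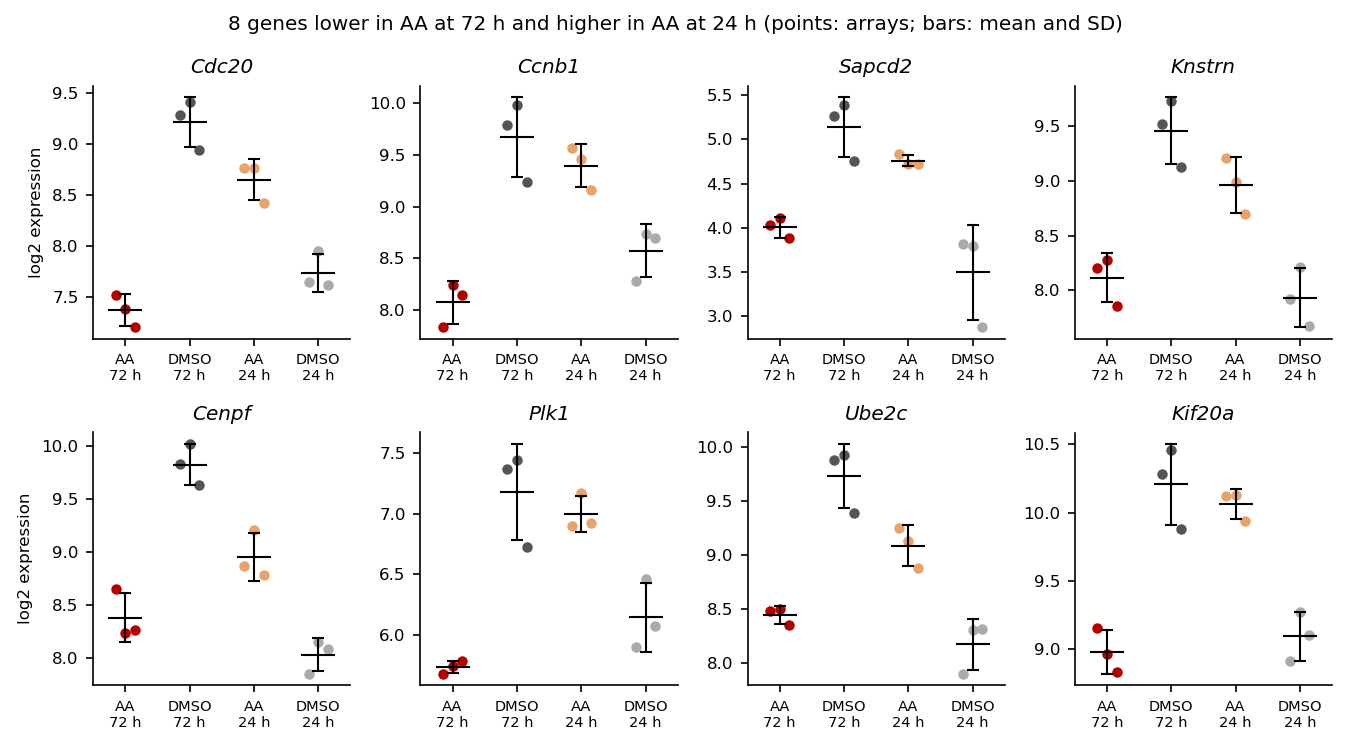
The log2 expression of the 8 reversed genes with the largest change is plotted for each array (points) with the mean and SD of each group (bars), with AA left of DMSO and 72 h left of 24 h. In all 8 genes AA lies below DMSO at 72 h and above it at 24 h, and the highest group mean is DMSO at 72 h.

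Both treatments moved between the times. Among the 43 genes, AA at 72 h was lower than AA at 24 h in 39, with a median difference of -0.53, and DMSO at 72 h was higher than DMSO at 24 h in 43, with a median difference of 1.11. The time difference in DMSO was larger in size than that in AA in all but 8 of the 43. Over all genes tested the corresponding medians were 0.06 in AA and 0.00 in DMSO, and 50.1% had a higher mean in DMSO at 72 h. In bulk RNA, fewer cells in mitosis and less of these transcripts per cell cannot be told apart.

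Over the whole G2/M and mitosis list, 59 of 71 members were tested. The effect was lower at 72 h for 51 and higher for 1, where 15.3% and 21.0% of all genes were, and the list's median change was -1.42 against 0.06 for all genes. At 72 h 38 of the 59 were lower in AA and 8 higher, where 21.3% and 29.4% of all genes were. At 24 h 48 were higher, where 1.68% of all genes were. DMSO at 72 h was above DMSO at 24 h in 58 of the 59. The member with a higher effect at 72 h was Zwint, a kinetochore scaffold protein, with a change of 0.52, named after its value was seen. Pimreg, a mitotic regulator outside the reversed class because it was not called at 24 h, had a change of -2.52 ± 0.39.

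Promoters of the reversed genes shared short motifs that the class rule did not use. Windows of 300 bases, 250 before to 50 after the gene start, came from the RefSeq promoter table of assembly GRCr8, which matched 37 of the 43. The CHR core TTTGAA, searched on both strands, was in 27 of the 37 (73.0%) against 852 of 7569 windows of all genes tested (11.3%). The NF-Y box CCAAT, searched on both strands, was in 30 (81.1%) against 38.8%, and 23 windows held both (62.2%) against 4.8%. E2F sites, searched on both strands as the sequence TTCCCGC, the variant TTGGCGC and the further variant TTCGCGC, were in 21.6% against 16.2%. These shares are a description and were not tested, and a match is not a binding site. A p53 response element, searched as a pair of consensus half-sites with a spacer of 0 or 1 bases, was in 0 of the 7569 windows. Only exact matches within the window were counted, so this 0 cannot show whether p53 sites are absent.

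The 4 windows below show this arrangement in those of the 8 largest reversals that held both motifs. They are the promoters of Cdc20 (chr5:137255750-137256049, minus strand), Sapcd2 (chr3:28585188-28585487, plus strand), Cenpf (chr13:103760837-103761136, minus strand) and Plk1 (chr1:186147408-186147707, plus strand), read 5′ to 3′ along the gene. Capitals mark TTTGAA or its reverse complement TTCAAA, and CCAAT or its reverse complement ATTGG.
Cdc20: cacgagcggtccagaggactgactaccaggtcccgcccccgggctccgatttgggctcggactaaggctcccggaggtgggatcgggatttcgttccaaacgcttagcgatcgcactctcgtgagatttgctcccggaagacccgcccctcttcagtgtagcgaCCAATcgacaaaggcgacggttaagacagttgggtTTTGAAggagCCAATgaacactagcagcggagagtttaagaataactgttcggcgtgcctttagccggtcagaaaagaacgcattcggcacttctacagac
Sapcd2: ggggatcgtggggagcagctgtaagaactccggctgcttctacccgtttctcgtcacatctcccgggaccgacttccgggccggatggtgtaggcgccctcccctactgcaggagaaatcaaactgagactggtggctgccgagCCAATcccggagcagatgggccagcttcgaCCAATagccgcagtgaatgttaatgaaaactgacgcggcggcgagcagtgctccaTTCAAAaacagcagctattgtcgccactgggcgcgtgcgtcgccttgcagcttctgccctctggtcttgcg
Cenpf: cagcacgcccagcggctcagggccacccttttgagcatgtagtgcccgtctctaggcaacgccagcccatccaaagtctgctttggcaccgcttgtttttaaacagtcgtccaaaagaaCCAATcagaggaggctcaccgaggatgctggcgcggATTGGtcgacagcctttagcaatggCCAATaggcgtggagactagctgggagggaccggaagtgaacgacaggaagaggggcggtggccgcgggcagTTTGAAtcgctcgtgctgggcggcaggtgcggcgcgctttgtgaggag
Plk1: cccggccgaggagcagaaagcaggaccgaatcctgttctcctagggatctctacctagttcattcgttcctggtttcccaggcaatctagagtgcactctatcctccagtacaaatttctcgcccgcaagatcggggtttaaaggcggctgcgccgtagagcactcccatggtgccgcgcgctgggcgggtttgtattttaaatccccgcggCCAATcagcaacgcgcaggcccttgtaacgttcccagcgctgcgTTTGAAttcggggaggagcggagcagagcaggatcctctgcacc
Cdc20 and Sapcd2 each hold 2 CCAAT boxes and 1 CHR core, Cenpf holds 3 and 1, and Plk1 holds 1 of each. Among the rest of the 8, Ccnb1 and Kif20a held CCAAT boxes and no CHR core, and Knstrn a CHR core and no CCAAT box. Ube2c had no window and was not searched.

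The number of genes reversed downwards depended on single arrays at both times, while the call on their change of effect did not. It was 25 without AA 24 h replicate 1, 23 without AA 24 h replicate 2, 25 without DMSO 24 h replicate 1 and 68 without DMSO 72 h replicate 3, and 24 with no filter on low values. The change of effect was called for all 43 genes in each of the 12 fits without 1 array. The 1 gene reversed the other way was Kdm1b, a histone demethylase. Kdm1b measured 8.18, 8.24 and 8.27 in AA at 72 h against 7.82, 7.73 and 7.77 in DMSO at 72 h, and 7.56, 7.42 and 7.63 in AA at 24 h against 8.02, 7.90 and 8.11 in DMSO at 24 h. Its groups did not overlap at either time, and the change was 0.93 ± 0.14 (adjusted p = 0.000158). Between 0 and 5 genes were in that class without 1 array: 5 without AA 72 h replicate 1 or DMSO 24 h replicate 2, 3 without AA 72 h replicate 2, 2 without DMSO 72 h replicate 3, and 0 without AA 24 h replicate 1 or 2 or DMSO 24 h replicate 1 or 3.

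Early-only genes included members of the replication and repair lists. Of the 56, 51 were higher in AA at 24 h with a median effect of 0.80 and a median of -0.16 at 72 h. The 56 held 12 members of the G2/M list, 8 of the G1/S list and 5 of the homologous recombination and Fanconi list. Those lists had 59, 54 and 23 tested members, and the 56 came from 8949 genes tested. Of those 5, Brca1, Rad54l, Exo1 and Blm had a lower effect at 72 h and Mus81 a higher one, and Rad54l, Exo1 and Blm were named after their values were seen. Brca1, which acts in homologous recombination, measured 2.81, 2.77 and 2.97 in AA at 72 h against 3.57, 3.52 and 2.81 in DMSO at 72 h, and 4.29, 5.00 and 4.55 in AA at 24 h against 3.27, 3.01 and 3.53 in DMSO at 24 h. Only the 24 h groups were apart. DMSO at 24 h and both 72 h groups lay below log2 4, so Brca1 passed the filter through AA at 24 h alone. The change was -1.79 ± 0.35 (adjusted p = 0.00125), and it depends on the background model for the 3 dim groups. Cdca2, Kif15, a spindle kinesin, and Cit, a kinase of cytokinesis, had changes of -1.47, -1.47 and -1.43, and the mean of the probe sets of Cit changed by -0.72. Of the 44 promoters of early-only genes with a lower effect at 72 h, 29.5% held the CHR core, 61.4% a CCAAT box and 40.9% an E2F site, against 11.3%, 38.8% and 16.2% of all windows.

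The 5 early-only genes with a higher effect at 72 h were lower in AA at 24 h. Mus81, a structure-specific DNA endonuclease, had effects of 0.00 at 72 h and -0.72 at 24 h, and the thioredoxin reductase Txnrd3 had 0.19 and -0.82. Pm20d2 and Ints6l, an Integrator-related protein, had changes of 0.78 and 0.70, and the mean of the probe sets of Pm20d2 changed by 0.38 and was not called. The 51 fell to 21 without AA 24 h replicate 1, 23 without AA 24 h replicate 2, 32 without AA 24 h replicate 3, 21 without DMSO 24 h replicate 1 and 30 without DMSO 24 h replicate 3. The 5 became 9 without AA 72 h replicate 1, 10 without AA 72 h replicate 2, 1 without AA 24 h replicate 1, 2 without AA 24 h replicate 2, 1 without DMSO 24 h replicate 1 and 9 without DMSO 24 h replicate 2.

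The G1/S and DNA replication list moved less than the mitotic one. Of 54 tested members, 20 had a lower effect at 72 h and 1 a higher, where 15.3% and 21.0% of all genes did. The median change was -0.40, and the list's median effect was 0.08 at 72 h and 0.51 at 24 h. At 24 h 21 were higher in AA, where 1.68% of all genes were. At 72 h 17 were higher and 7 lower, where 29.4% and 21.3% of all genes were. The share higher at 72 h was thus near that of all genes. The helicase subunits Mcm3, Mcm4 and Mcm5 were early-only, Mcm6 was late-onset and lower, and Mcm7 was reversed. Mcm2 had a change of -0.42 ± 0.11 (adjusted p = 0.00784) with no call at either time. The replication clamp Pcna had effects of 0.08 at 72 h and 0.26 at 24 h, and its change of -0.18 did not pass the test (adjusted p = 0.101). Thymidylate synthase (Tyms) was the exception, amplified, with effects of 1.89 at 72 h and 0.48 at 24 h. Gins1, Prim2 and Pola1, of the replisome and its primase, had changes of -1.41, -1.35 and -1.29.

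Sustained effects also lay among genes of division and replication. Of the 33 genes, 27 were higher in AA at both times, with median effects of 0.58 at 72 h and 0.74 at 24 h, and 6 were lower. For 9 of the 33 the 95% interval of the change lay within 0.5 of 0, and for the other 24 a larger change could not be told from none. The G2/M list gave 7 sustained members of 59 tested and the G1/S list 8 of 54, beside 33 of all 8949 genes tested. Of the 21 promoters of the 27 genes, 57.1% held an E2F site, 76.2% a CCAAT box and 33.3% the CHR core. Over all windows these shares were 16.2%, 38.8% and 11.3%. In the reversed genes lower at 72 h they were 21.6%, 81.1% and 73.0%.

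Separase (Espl1), the protease that releases sister chromatids, measured 8.51, 9.12 and 8.70 in AA at 72 h against 7.62, 7.84 and 7.36 in DMSO at 72 h, and 8.09, 8.09 and 8.05 in AA at 24 h against 6.78, 7.19 and 7.34 in DMSO at 24 h. AA was higher on all arrays at both times, and the change was 0.20 ± 0.24 (adjusted p = 0.553). The kinetochore protein Cenpt had effects of 1.14 at 72 h and 1.29 at 24 h, the kinesin Kif18b 0.97 and 1.38, and E2f7, a repressor of the E2F family and a p53 target in human cells, 0.84 and 1.21. Stratifin (Sfn), a 14-3-3 protein induced by p53, had 1.29 at 72 h and 0.90 at 24 h, and C9h6orf141 had 0.89 and 0.92.

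Among the 6 genes lower at both times, the endosomal exchanger Slc9a9 measured 2.12, 2.12 and 2.14 in AA at 72 h against 4.29, 4.26 and 3.92 in DMSO at 72 h, and 3.19, 2.84 and 2.74 in AA at 24 h against 5.12, 4.94 and 3.60 in DMSO at 24 h. Both DMSO groups lay above both AA groups, and the AA values were at or near the floor. The p38 activator Map2k6 had effects of -1.18 at 72 h and -1.15 at 24 h, and Flot1, a membrane scaffold protein, had -0.74 and -0.53. Cfap69, Arhgap26 and L3hypdh completed the 6. For Map2k6 the AA means were 2.83 at 72 h and 2.93 at 24 h, against 4.01 and 4.08 in DMSO. For Arhgap26 the AA means were 3.59 and 2.87, against 4.33 and 4.17 in DMSO. Effects of these 2 genes depend on the background model, as does that of Cfap69 at 72 h, with a mean of 3.34 in AA. A second probe set of L3hypdh had a change of -0.93 where the brightest had 0.28. The 27 became 13 without AA 24 h replicate 1, 17 without AA 24 h replicate 2 and 15 without DMSO 24 h replicate 1. The 6 became 10 without AA 72 h replicate 1, 11 without DMSO 24 h replicate 3, 3 without AA 24 h replicate 2 or 3 and 1 without DMSO 24 h replicate 1.

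Amplified increases were led by p53 targets. Of the 20 genes higher at both times and more so at 72 h, with median effects of 2.24 and 0.59, Cdkn1a had the largest change. Cdkn1a measured 14.57, 14.63 and 14.48 in AA at 72 h against 10.88, 11.02 and 10.65 in DMSO at 72 h, and a mean of 12.04 (highest 12.10) in AA at 24 h against 11.01, 11.02 and 10.76 in DMSO at 24 h. The DMSO groups were alike, AA at 72 h stood far above AA at 24 h, and the effects were 3.71 and 1.12, a change of 2.60 ± 0.13 (adjusted p = 6.5e-09). Phlda3, a p53-induced inhibitor of Akt, had effects of 2.70 at 72 h and 0.60 at 24 h, and Aen, a p53-induced nuclease, 2.57 and 0.87.

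Ephx1, the microsomal epoxide hydrolase and an NRF2 target, had effects of 2.49 at 72 h and 0.51 at 24 h. Anxa8, Enc1 and the receptor Notch1 had changes of 1.96, 1.93 and 1.49, with 1.11 for Enc1 by the mean of its probe sets. In 19 of the 20 genes AA moved further between the times than DMSO did. The 20 became 8 without AA 24 h replicate 2, 11 without AA 24 h replicate 3 and 11 without DMSO 24 h replicate 1, and 13 with no filter.

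Most tested p53 targets had a higher effect at 72 h than at 24 h. Of 26 tested members, 18 had a higher effect at 72 h and 1 a lower, where 21.0% and 15.3% of all genes did. The median change was 1.51 against 0.06 for all genes. At 72 h 20 were higher and 3 lower, where 29.4% and 21.3% of all genes were. At 24 h 3 were higher (Cdkn1a, Phlda3 and Aen), where 1.68% of all genes were. List counts of 0 or 1 moved by single genes, between 0 and 3, when 1 array was left out. Mdm2 measured 12.84, 12.70 and 13.20 in AA at 72 h against 10.55, 10.48 and 10.17 in DMSO at 72 h, and 11.45, 11.79 and 11.79 in AA at 24 h against 11.32, 11.23 and 11.20 in DMSO at 24 h. The groups were apart at both times, but the 24 h effect of 0.43 did not pass the test (adjusted p = 0.114), and DMSO at 72 h was below DMSO at 24 h. The change was 2.09 ± 0.18 (adjusted p = 1.15e-06).

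Gdf15, a secreted stress cytokine, was at the floor in 3 of the 4 groups. Gdf15 measured 5.33, 6.32 and 6.61 in AA at 72 h against 2.43, 2.39 and 2.40 in DMSO at 72 h, and 2.38, 2.38 and 2.38 in AA at 24 h against 2.39, 2.37 and 2.40 in DMSO at 24 h, a change of 3.69 ± 0.37. Ccng1, Gadd45a, Plk2 and Epha2 had effects of 1.90, 1.37, 2.77 and 2.67 at 72 h against 0.25, 0.00, 0.44 and 0.39 at 24 h. The apoptosis regulator Bbc3 (PUMA) had a change of 1.78 ± 0.15. The member that went the other way was Ddb2, a damage sensor of nucleotide excision repair, with -0.49 at 72 h and 0.42 at 24 h, a change of -0.91 ± 0.20, and its other tested probe set had -0.19 and no call.

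**Figure D3:**
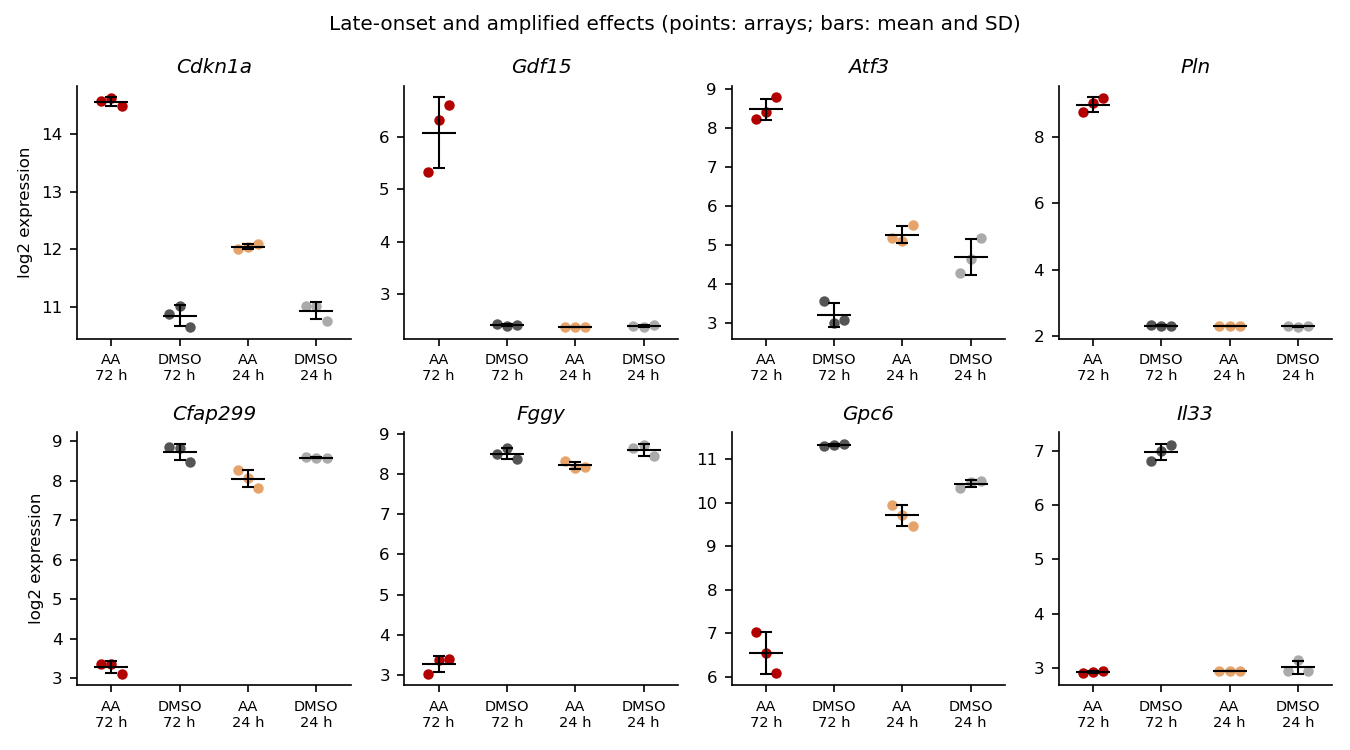
The log2 expression of 8 late-onset or amplified genes is plotted for each array (points) with the mean and SD of each group (bars), with AA left of DMSO and 72 h left of 24 h. AA at 72 h is the highest group for Cdkn1a, Gdf15, Atf3 and Pln and the lowest or equal lowest for Cfap299, Fggy, Gpc6 and Il33, and for Il33 it is DMSO at 72 h that stands apart.

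Late-onset increases formed the largest class. The 1739 genes had median effects of 0.59 at 72 h and -0.03 at 24 h, and 1545 of them had a 24 h effect within 0.25 of 0. The increase reached 2-fold at 72 h for 339. AA moved further between the times than DMSO in 1272 of the 1739. The 8 largest changes, besides Gdf15, were in Pln, Atf3, Spetex2l2, Slc51a, Osgin1, Pinlyp and Phlda2.

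Phospholamban (Pln), an inhibitor of the calcium pump of the endoplasmic reticulum, had the largest change of all, 6.66 ± 0.23. Pln measured 8.75, 9.02 and 9.17 in AA at 72 h against 2.33, 2.30 and 2.31 in DMSO at 72 h, and 2.30 on all 3 arrays of AA at 24 h against 2.30, 2.27 and 2.30 in DMSO at 24 h. It was at the floor everywhere but AA at 72 h, and the mean of its 3 probe sets changed by 4.15. Atf3, a transcription factor of the stress response, measured 8.23, 8.39 and 8.77 in AA at 72 h against 3.56, 2.98 and 3.06 in DMSO at 72 h, and 5.16, 5.09 and 5.50 in AA at 24 h against 4.26, 4.62 and 5.17 in DMSO at 24 h. Its 24 h groups overlapped, its change was 4.70 ± 0.33 (adjusted p = 1.78e-07), and DMSO at 72 h minus DMSO at 24 h was -1.48. Slc51a, a subunit of the organic solute transporter, and Osgin1, an oxidative stress gene, changed by 4.41 ± 0.39 and 4.0 ± 0.44. Spetex2l2, Pinlyp and Phlda2, an imprinted gene, changed by 4.45, 3.91 and 3.58. Slc51a, Spetex2l2, Pinlyp and Phlda2 reached log2 4 in AA at 72 h alone and passed the filter through that group. Their means in the other groups were 2.02 to 3.65, so the size of these changes depends on the background model.

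NRF2 targets, which encode enzymes of antioxidant and xenobiotic defence, gave mostly late increases. Of 22 tested, 16 had a higher effect at 72 h, against 21.0% of all genes, with a median change of 0.91. Ephx1 was the member called at 24 h. Nqo1, the quinone reductase known to activate AA, measured 12.99, 13.32 and 13.28 in AA at 72 h against 10.67, 10.65 and 10.81 in DMSO at 72 h, and 11.40, 11.98 and 11.93 in AA at 24 h against 12.12, 11.66 and 11.46 in DMSO at 24 h. The 24 h groups overlapped, the change was 2.47 ± 0.23 (adjusted p = 2e-06), and the time difference was 1.43 in AA and -1.04 in DMSO. Heme oxygenase 1 (Hmox1) changed by 2.97 ± 0.37 and the aldo-keto reductase Akr1b8 by 2.73 ± 0.20. In 20 of the 22 members DMSO at 72 h was below DMSO at 24 h, against 4464 of the 8949 genes tested.

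ATF4 stress response genes gave 16 higher and 1 lower of 25 tested, with a median change of 0.72. Over all genes tested 21.0% were higher and 15.3% lower, the shares beside which each list in this paragraph stands. Trib3, a pseudokinase of the stress response, changed by 3.34 ± 0.40 and the mitochondrial folate enzyme Mthfd2 by 2.46 ± 0.48. The lower member was Nupr1, with -1.65, named after its value was seen. Immediate early genes gave 14 higher of 24, with a median change of 0.62, among them Klf4 (2.28 ± 0.22), Egr2 (1.37 ± 0.24, or 0.67 by the mean of its probe sets) and the amplified Ier5 (1.19 ± 0.12, or 0.39 by that mean). Targets of SRF and YAP, transcription factors that respond to actin tension, gave 12 higher and 1 lower of 24, with Ankrd1 at 2.72 ± 0.46 and transgelin (Tagln) at 1.22 ± 0.18. Heat shock chaperones gave 7 higher of 18, led by Hspb8 with 1.91 ± 0.22. Genes of the unfolded protein response gave 8 higher and 3 lower of 24, led by the chaperone Hyou1 with 1.21 ± 0.20, or 0.56 by the mean of its probe sets. The 3 became 0 without DMSO 72 h replicate 2 and 1 without AA 72 h replicate 1, AA 24 h replicate 2 or DMSO 24 h replicate 1.

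Metabolic lists moved with smaller values. The cholesterol synthesis and fatty acid synthesis lists had a larger median fall in DMSO from 24 h to 72 h than in AA. For the glycolysis and hypoxia list the median time difference was -0.18 in DMSO and 0.07 in AA. Beside the counts below, 21.0% of all genes had a higher effect at 72 h and 15.3% a lower. Glycolysis and hypoxia genes gave 17 higher and 1 lower of 28, with a median change of 0.36, and Vegfa, the endothelial growth factor, changed by 1.94 ± 0.20 and Ddit4, an mTOR inhibitor, by 1.91 ± 0.15. Cholesterol synthesis genes gave 9 higher and 1 lower of 20. All 20 were lower at 72 h than at 24 h in both treatments, with medians of -1.11 in AA and -1.48 in DMSO. Mevalonate decarboxylase (Mvd) measured 6.89, 7.47 and 7.06 in AA at 72 h against 5.97, 6.24 and 4.82 in DMSO at 72 h, and 9.18, 9.23 and 9.50 in AA at 24 h against 9.13, 9.21 and 9.37 in DMSO at 24 h. DMSO at 72 h was below DMSO at 24 h by more than AA at 72 h was below AA at 24 h, and the change was 1.40 ± 0.38 (adjusted p = 0.0098). The count of 9 was 5 with no filter and 5 without AA 24 h replicate 1. Me1, the cytosolic malic enzyme, changed by 1.54 ± 0.15, and the lipoprotein lipase inhibitor Angptl4 and the kinase Pdk4, both PPAR targets, by 2.78 ± 0.29 and 1.43 ± 0.17, Pdk4 by 0.83 by the mean of its probe sets.

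Proteasome subunits gave 12 higher and 1 lower of 34, where 21.0% and 15.3% of all genes were, led by Psmb7 with 0.85 ± 0.14. In 31 of the 34 DMSO at 72 h was below DMSO at 24 h, against 4464 of the 8949 genes tested. The count of 12 was 5 with arrays centred on their medians, 6 with no intensity trend, 7 without AA 72 h replicate 2 or 3 or AA 24 h replicate 1 or 3, and 6 without DMSO 72 h replicate 2 or 3. Oxidative phosphorylation gave 13 lower and 2 higher of 55, where 15.3% and 21.0% of all genes were, with Ndufs8, a subunit of complex I, at -0.62 ± 0.17. The 2 became 4 without AA 72 h replicate 1, 5 without DMSO 24 h replicate 3 and 1 without any other array but AA 24 h replicate 2. Set against the same shares, mitochondrial ribosome genes gave 13 lower and 7 higher of 74, with Mrps28 at -1.89 ± 0.21 and Mrpl38 at 1.48 ± 0.35, and 8 lower without AA 24 h replicate 1. 

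**Figure D4:**
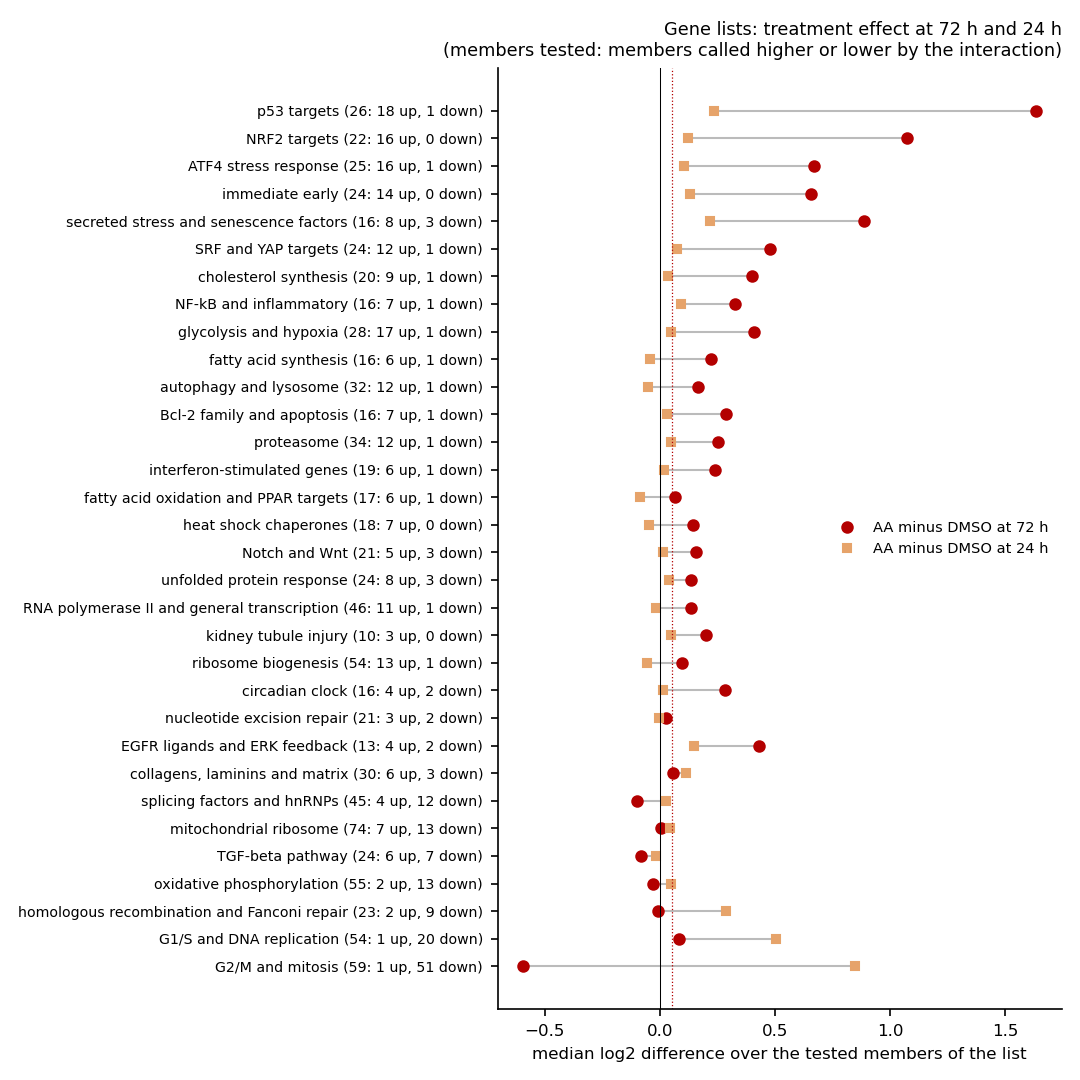
For each gene list with at least 10 tested members, the median AA minus DMSO log2 difference is plotted at 72 h (circles) and 24 h (squares), with the tested members and the numbers called higher and lower by the change of effect in the label. The dotted line is the 72 h median of all genes tested, 0.05. The p53 list is shifted furthest to the right at 72 h, and the G2/M list is the one list with medians of opposite sign well away from 0, at -0.59 and 0.85.

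Late-onset and amplified decreases were marked by long genes. The 1181 late-onset decreases had median effects of -0.67 at 72 h and -0.01 at 24 h. Of them, 941 had a 24 h effect within 0.25 of 0, and 385 reached 2-fold at 72 h. The median genomic span of the 1181 was 66.3 kb against 24.2 kb for all genes tested. The 11 amplified decreases had a median span of 345 kb and all spanned over 100 kb. Spans came from the RefSeq table of GRCr8 and are those of the gene, introns included. Gpc6, a glypican of 998 kb, measured 7.02, 6.54 and 6.07 in AA at 72 h against 11.30, 11.34 and 11.35 in DMSO at 72 h, and 9.94, 9.72 and 9.47 in AA at 24 h against 10.35, 10.47 and 10.50 in DMSO at 24 h. AA was below DMSO on all arrays at both times, and the change was -4.07 ± 0.25 (adjusted p = 5.07e-08). The 2 other tested probe sets of Gpc6 had changes of -4.65 and -0.89, and 1 of them was called.

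Ankyrin 2 (Ank2, 576 kb) had effects of -3.81 at 72 h and -1.06 at 24 h, with a change of -2.75 ± 0.18 by its brightest probe set and -0.93 by the mean of its probe sets. The glycogen branching enzyme Gbe1 (265 kb) and the adaptor Sh3kbp1 (345 kb) had changes of -2.62 and -2.48. The second probe set of Sh3kbp1 had -0.85 and no call. The 11 became 25 without AA 72 h replicate 1 and 6 without DMSO 72 h replicate 1 or 2. They became 7 without DMSO 72 h replicate 3 or AA 24 h replicate 1, 3, 4 and 5 without AA 24 h replicate 2, AA 24 h replicate 3 and DMSO 24 h replicate 1, and 6 without DMSO 24 h replicate 3. With no filter they were 6.

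Cfap299 (486 kb) had the largest late-onset decrease. Cfap299 measured 3.37, 3.37 and 3.12 in AA at 72 h against 8.86, 8.82 and 8.48 in DMSO at 72 h, and 8.26, 8.08 and 7.82 in AA at 24 h against 8.60, 8.57 and 8.57 in DMSO at 24 h. It was near the floor in AA at 72 h and high in the other 3 groups, and the change was -4.90 ± 0.20 (adjusted p = 6.47e-10). The carbohydrate kinase Fggy (387 kb), Gmds (527 kb), the enzyme that starts GDP-fucose synthesis, Atg10 (290 kb), an enzyme of autophagosome formation, Gtdc1 (396 kb), Enox2 (322 kb) and the BBSome subunit Bbs9 (425 kb) changed by -4.87, -4.50, -3.78, -3.68, -3.51 and -3.49. In all of these the 24 h effect was between -0.38 and -0.59 and was not called, though AA lay below DMSO on all arrays at 24 h.

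Il33 (34.4 kb), a cytokine of the interleukin 1 family, was the exception among the 8 largest decreases. Il33 measured 2.92, 2.93 and 2.94 in AA at 72 h against 6.81, 6.99 and 7.11 in DMSO at 72 h, and 2.94 on all 3 arrays of AA at 24 h against 2.95, 3.15 and 2.95 in DMSO at 24 h. Its change was -3.97 ± 0.23, with DMSO at 72 h above DMSO at 24 h by 3.96 and AA at the floor at both times. The water channel Aqp1, the 1 proximal tubule marker clearly above log2 4, also had DMSO at 72 h as its highest group. Unlike Il33, it was higher at 72 h in AA as well. At 72 h Aqp1 measured 6.22, 5.94 and 6.17 in AA against 8.48, 8.39 and 8.43 in DMSO. At 24 h it measured 4.27, 3.91 and 3.02 in AA against 3.52, 3.64 and 2.48 in DMSO. Its change was -2.85 ± 0.43 (adjusted p = 0.00015), with DMSO at 72 h above DMSO at 24 h by 5.22 and AA at 72 h above AA at 24 h by 2.37.

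Across gene spans, the share of genes with a lower effect at 72 h was 10.2% of 5127 genes under 30 kb, 12.6% of 2639 from 30 to 100 kb, 37.7% of 972 from 100 to 300 kb and 77.8% of 180 over 300 kb. The share with a higher effect was 24.2%, 20.8%, 7.92% and 2.78% over the same bins. Over 300 kb the median effect was -1.60 at 72 h and -0.20 at 24 h. In that bin 156 genes were lower at 72 h and 8 at 24 h, where 21.3% and 0.291% of all genes were. The median log2 level in DMSO at 72 h was 9.26, 9.37, 9.27 and 8.57 in the same bins. Across genes, which are not independent and share the arrays, the Spearman correlation of span with the change was -0.21 over 8918 genes. It was -0.26 with the effect at 72 h and -0.21 with the effect at 24 h, so span and effect were already related at 24 h. Spans are a property of the gene and arrays read its 3′ end, and the part of the 3′ to 5′ difference given above was not tested.

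**Figure D5:**
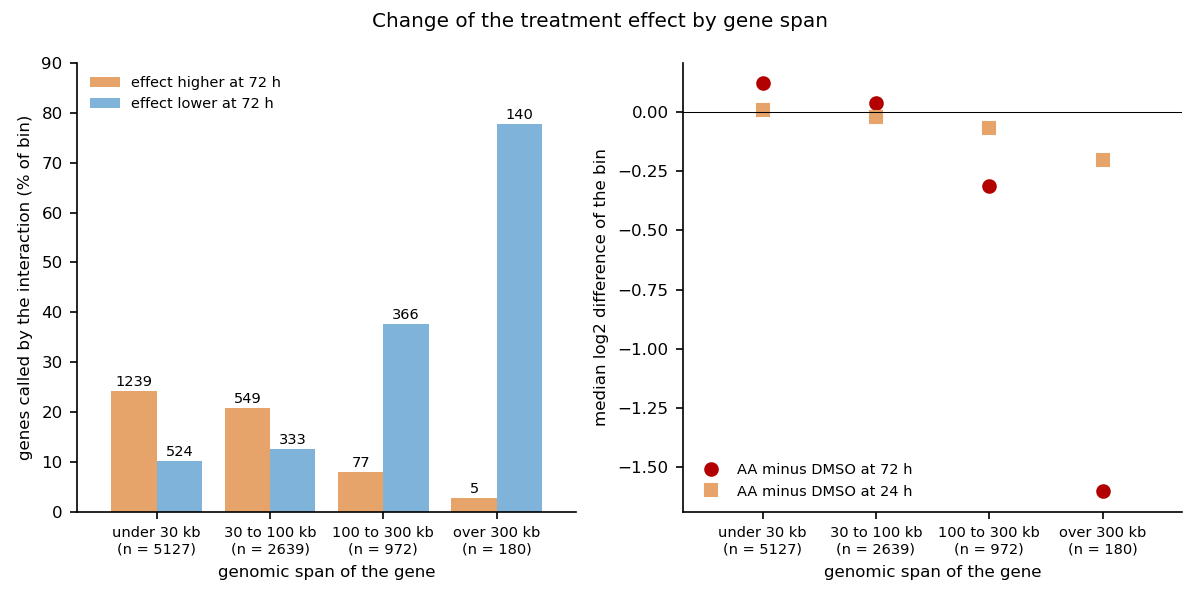
The left panel gives the percent of genes in each bin of genomic span whose effect was higher or lower at 72 h than at 24 h, with the number of genes called over each bar, and the right panel the median AA minus DMSO log2 difference at 72 h (circles) and 24 h (squares). The share lower at 72 h is 77.8% over 300 kb against 10.2% under 30 kb, and the 72 h median in the longest bin is -1.60.

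Repair lists held calls in both directions. Of 23 homologous recombination and Fanconi genes, 9 had a lower effect at 72 h and 2 a higher, with 4 lower at the stricter filter of log2 6. The 9 included the reversed Fancd2 and the early-only Brca1, Rad54l, Exo1 and Blm given above. Rad51b (544.5 kb) and Fancl, the Fanconi ubiquitin ligase, changed by -2.17 ± 0.37 and -1.56 ± 0.15, and Fancd2, its substrate, by -1.43 ± 0.21. Nucleotide excision repair, the pathway that removes bulky adducts, gave 3 higher and 2 lower of 21, smaller shares than the 21.0% and 15.3% of all genes tested, and 6 higher without AA 72 h replicate 1. The endonuclease subunit Ercc4 (XPF) changed by 1.18 ± 0.27, or 0.59 by the mean of its probe sets, and the damage verifier Xpa by -0.85 ± 0.16. Bcl-2 family genes gave 7 higher and 1 lower of 16, with Bid and Bak1, which permeabilise mitochondria, at 1.15 ± 0.21 (0.67 by the mean of its probe sets) and 0.75 ± 0.17, and the survival gene Bcl2l1 at 1.32 ± 0.18, with 0.28 and no call in its other tested probe set.

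Genes that take up or activate AA gave 4 higher and 2 lower of 8, where 21.0% and 15.3% of all genes were. Besides Nqo1, the reductase partner Por changed by 1.17 ± 0.17, the acetyltransferase Nat2 by 0.88 ± 0.21 and cytochrome b5 (Cyb5a) by -0.85 ± 0.12. Of 7 tested transporters of the proximal tubule, the cystine transporter Slc7a9 changed by 2.52 ± 0.29 and the carnitine transporter Slc22a5 by 0.90 ± 0.11, and the bicarbonate cotransporter Slc4a4 (452 kb) by -2.09 ± 0.31. Kidney injury genes gave 3 higher of 10, against 21.0% of all genes, with the adhesion receptor Cd44 at 2.15 ± 0.42. The injury marker Havcr1 lay between log2 1.89 and 1.94 on all 12 arrays and was not tested.

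Signalling and matrix lists were mixed. TGF-beta pathway genes gave 6 higher and 7 lower of 24, where 21.0% and 15.3% of all genes were. The share higher was near that of all genes, and 4 were lower without AA 72 h replicate 3 or DMSO 72 h replicate 1. Tgfb1 measured 7.23, 6.89 and 6.64 in AA at 72 h against 5.50, 5.67 and 5.39 in DMSO at 72 h, and 6.24, 5.69 and 5.94 in AA at 24 h against 5.71, 5.98 and 5.87 in DMSO at 24 h. The groups were apart at 72 h and overlapped at 24 h, with a change of 1.30 ± 0.25 (adjusted p = 0.00103). Its binding protein Ltbp1 (396 kb), the activin subunit Inhba and the BMP target Id3 changed by -1.74, -1.76 and -1.02. Of 30 matrix genes 6 were higher and 3 lower, shares no larger than the 21.0% and 15.3% of all genes, or 5 lower without AA 72 h replicate 1 or DMSO 72 h replicate 3, with the laminin chains Lama3 and Lamb3 at 2.46 ± 0.34 and 0.88 ± 0.21. The mesenchymal filament Vim had effects of -0.10 at 72 h and 0.14 at 24 h, and its change of -0.23 did not pass the test (adjusted p = 0.0706).

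Inflammatory genes gave 7 higher and 1 lower of 16, and interferon-stimulated genes gave 6 higher and 1 lower of 19. Over all genes tested 21.0% were higher and 15.3% lower. Cyclooxygenase 2 (Ptgs2) changed by 1.08 ± 0.23, the chemokine Cxcl1 by 1.01 ± 0.24 and Icam1 by 0.86 ± 0.08. The peptide transporter Tap1, Isg15 and the transcription factor Irf7 changed by 2.15 ± 0.19, 1.90 ± 0.29 and 1.58 ± 0.17, and the mean of the probe sets of Tap1 by 1.07. The chemokine Ccl2 measured 2.47, 3.01 and 3.37 in AA at 72 h against 2.50, 2.48 and 2.49 in DMSO at 72 h, below the filter. Of the genes that define other cell types, Cd68, a lysosomal protein of macrophages, had a change of 2.03 and Tek, an endothelial receptor, of -1.80, while the other tested-for immune and endothelial markers stayed below log2 4.

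Circadian clock genes gave 4 higher and 2 lower of 16, where 21.0% and 15.3% of all genes were, and 2 higher without DMSO 72 h replicate 1 or 2, AA 24 h replicate 1 or DMSO 24 h replicate 1. The 2 lower were the clock-output genes Hlf with -2.60 ± 0.29 and Tef with -0.87 ± 0.15, or -0.48 by the mean of its probe sets, while the repressor Nr1d1 changed by 1.32 ± 0.28. Hlf measured 5.87, 5.04 and 5.51 in AA at 72 h against 7.99, 7.95 and 8.24 in DMSO at 72 h, and 7.37, 7.08 and 6.63 in AA at 24 h against 6.89, 7.03 and 7.12 in DMSO at 24 h. The 72 h groups were far apart and the 24 h groups overlapped. Splicing factors gave 12 lower and 4 higher of 45, with Hnrnpa1 at -1.38 ± 0.16 by its brightest probe set and 0.32 and -0.83 by its others. Ribosome biogenesis gave 13 higher and 1 lower of 54 (4 lower by quantile normalization), a share higher that is near the 21.0% of all genes, with Mak16 at 0.99 ± 0.17. Autophagy and lysosome genes gave 12 higher and 1 lower of 32, led by Map1lc3a with 1.01 ± 0.20, or 7 higher and 3 lower by the mean of all probe sets.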

How the data were processed

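RNA from NRK-52E cells was measured on Affymetrix rat arrays, 1 array per sample. The deposited values are log2 expression per probe set made by the authors with GCRMA, per the submitters' processing notes. Its version and settings were not given in the sources used here. GCRMA models background and sets undetected probe sets near a floor, so differences of dim genes depend on that model. The values carry no detection calls, and the number of arrays limits the precision.

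Of 31099 probe sets, 20826 had a single symbol in the platform annotation, 436 had several and 9780 had none, and 20758 were matched to the RefSeq table. Group means were fitted to the 12 arrays with limma 3.58.1 in R 4.3.3, with an intensity trend in the variance prior and 8 residual degrees of freedom. P-values were adjusted by Benjamini-Hochberg over the 8949 genes tested. A call was an adjusted p under 0.05. The fit was tested on simulated data.

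The genes named were, by a written rule, the largest changes of each class with arrays apart at the times that the class needs called, up to 4 called members of each list, and a fixed set. The members, lists, classes and this rule were chosen with earlier results of these data known, so no list is independent evidence of its direction. The replicate numbers in the labels were checked for pairing: same-numbered arrays had deviations from their group means that correlated between -0.23 and 0.22, so they were not used as a block. Other scalings, filters, priors, probe set rules, blocks and fits without 1 array were tried.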

Additional observations from a re-analysis of the deposited data

Results flagged for a closer look

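The effect of AA differed between the times by the test of the difference itself for 1876 genes higher at 72 h and 1367 lower, the counts given above. In 43 genes the effect was lower at 72 h and higher at 24 h, and in Kdm1b it was the other way, with a change of 0.93. Probe sets without a single gene symbol, which enter none of the comparisons above, also gave calls: 1128 of 3695 tested, or 30.5%, with 623 higher and 505 lower. Over all 16053 probe sets that passed the same filter, 31.9% were called.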

How the results depend on the processing

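Of 176 named genes with a called change of effect, 149 kept the call under all 21 alternatives, 9 kept it under the 20 in which they were tested (the log2 6 filter left them out), and 18 lost it under at least 1, Mtfr2 in 13. With the replicate number as a block, 1813 genes were higher and 1353 lower, and 1678 and 1300 with the block within time. Without 1 array the counts ranged as follows: 1560 to 2126 changes higher and 1134 to 1429 lower, 72 to 172 genes higher and 8 to 54 lower at 24 h, 8 to 27 amplified higher and 3 to 25 lower, 13 to 38 sustained higher and 1 to 11 lower, 23 to 68 and 0 to 5 reversed, 21 to 56 and 1 to 10 early-only, 104 to 219 called by the change alone, and 0 to 1 attenuated. With no filter, 82 genes were higher and 16 lower at 24 h, 13 amplified higher and 6 lower, 15 sustained higher, 24 reversed, 26 and 3 early-only, and 0 attenuated. With all 18 arrays, 0 genes were reversed upwards, 2 early-only upwards and 0 attenuated. Centring gave 3 early-only upwards, quantile normalization 2 reversed upwards, and the log2 6 filter 3 sustained lower. The mean of all probe sets gave 3 reversed upwards, 3 sustained lower and 0 attenuated. The block gave 0 attenuated, and within time also 0 reversed upwards and 6 amplified lower. Among sustained genes, whose change was not called, the sign turned for C9h6orf141 (-0.03; 0.015 by the mean of probe sets, -0.22 to 0.12 without 1 array), L3hypdh (0.28; -0.32 by that mean), Map2k6 (-0.22 to 0.26 without 1 array), Cenpt (-0.38 to 0.058) and Slc9a9 (-0.68 to 0.075). The cause was not tested. Low signal limits calls for genes below log2 4.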

Other observations

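The 6 h arrays enter no comparison above. In a fit of all 18 arrays, 12.1% of the 8949 genes were higher in AA at 6 h and 12.4% lower. Of the 43 genes lower at 72 h and higher at 24 h, 4 were higher at 6 h, with a median effect of 0.18. Of the 20 amplified increases 6 were higher at 6 h, and of the 11 amplified decreases 6 were lower and 1 higher, with a median effect of -0.42. Of the 180 genes over 300 kb, 18 were lower at 6 h and 8 higher.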
